A study of Strongylocentrotus purpuratus with 2 samples.

Results

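Pigment and blastocoelar cell genes were followed in 2 RNA sequencing libraries of whole purple sea urchin (Strongylocentrotus purpuratus) embryos. The members were the transcript models named Sp-gcm, Sp-GataC, Sp-Scl or Sp-Ployketide_synthase_like (spelled as in the deposited tables), and models with a name that begins with Sp-Fmo. The 14 models described here stood on 16 rows. Of these models, 13 had a value, among 12943 models with a value in all, and 1 model named Sp-Fmo5 (WHL22.603791.0) was blank in both libraries. Blanks were treated as missing. The 2 groups were embryos microinjected as fertilized eggs with glycerol, and embryos microinjected with a morpholino oligo against soxC, called here the control library and the morpholino library. A morpholino is an antisense oligonucleotide that blocks translation or splicing of its target, and soxC codes for a SoxC family transcription factor. About 1000 embryos per sample developed in artificial sea water at 15 °C and were collected 30 hours after fertilization. No control morpholino library was analysed here, so an effect of targeting soxC cannot be told apart from an effect of any morpholino, nor, with 1 library per group, from a difference in culture or stage.

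Pigment cells and blastocoelar cells arise from the nonskeletogenic mesoderm at the vegetal pole of the sea urchin embryo. A Delta signal received through Notch turns on gcm, the transcription factor gene needed for pigment cells, and these cells make naphthoquinone pigments such as echinochrome with a polyketide synthase and flavin monooxygenases. GataC and Scl are transcription factor genes of the blastocoelar cell precursors, which give rise to migratory, immune-like cells of the blastocoel.

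The deposited level is a normalized signal in which 1 read is worth 2.65 units in the glycerol control and 2.54 in the morpholino library. Whole reads were recovered from it, 4414503 and 4763993 in total. With 1 library per group there was no replicate, no test and no p-value. The ranges in parentheses after a ratio are 95% Clopper-Pearson counting intervals, which cover counting error only. Ratios are the morpholino library divided by the control. The soxC transcript itself was at 10632.2 units in the control library and 38052.2 in the other, 3.58-fold (3.46 to 3.71), which does not check the labels because a morpholino need not lower its target's RNA. The direction of every ratio therefore rests on the sample titles and the column headers, which name the group but give both libraries the same barcode and lane. Over the 8819 models with a mean level of at least 1 CPM (recovered reads per 1000000 of the library), the median log2 ratio was -0.21. The most abundant model took 6.75% of the control reads and 19.6% of the others, and with total reads as the scaling that median was -0.26 with this model in the totals and -0.05 without it. Each member is therefore given as deposited and relative to that median. In these whole embryo samples, more or fewer cells of a type and more or less RNA per cell cannot be told apart.

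Of the members described here, the 3 with the most reads lay above the overall median by less than 2-fold. Relative to that median, Sp-Ployketide_synthase_like was 1.57-fold, Sp-gcm 1.44-fold, and the best covered Sp-Fmo2 model 1.42-fold. As deposited, these ratios were 1.36, 1.25 and 1.23. On the log2 scale relative to the overall median, these 3 members lay at 0.65, 0.52 and 0.50. A broader list of pigment names did not lie above that median, with a list median of -0.06 on the same scale. That list holds whole gene families whose members are not all known from pigment cells. The blastocoelar cell regulators differed from each other by more than counting error: as deposited, Sp-Scl was 1.57-fold and Sp-GataC was 0.999-fold. None of the 9 members that reached 1 CPM met the size rule, which asks for 2-fold and a counting interval that leaves out a ratio of 1. By that rule, 0.658% of all models were higher and 4.67% were lower. With the overall median set to 0, no member met it either, against 1.53% and 2.35% of all models.

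**Figure D1:**
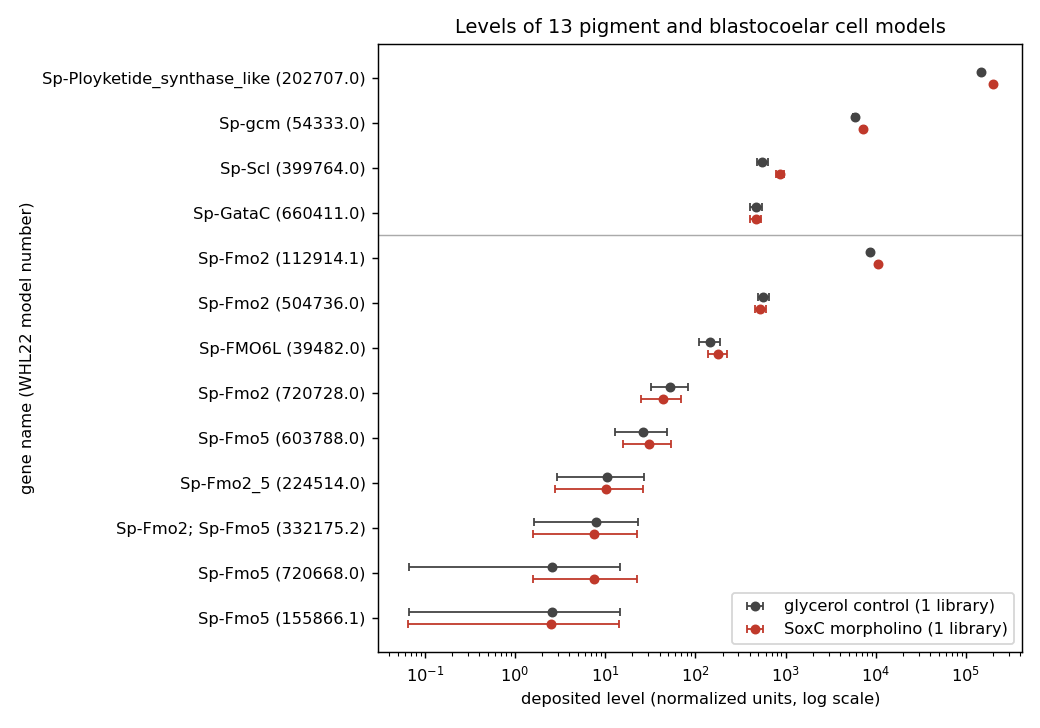
Deposited level (normalized units, log scale) of the 13 members in the glycerol control and in the morpholino library, 1 point per library, with exact Poisson 95% intervals of the reads. The gray line parts the regulators and the polyketide synthase from the Fmo models. Sp-Ployketide_synthase_like, Sp-gcm, Sp-Scl and the best covered Sp-Fmo2 model lie to the right in the morpholino library, while Sp-GataC overlaps at 468.6 and 468.1 units. Levels are not per transcript length, so rows are not to be compared with each other.

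Sp-gcm (WHL22.54333.0, SPU_006462), the pigment cell specification gene, was at 5845.6 units in the glycerol control and 7277.7 in the morpholino library, from 2208 and 2861 reads. The ratio was 1.25-fold (1.18 to 1.32) as deposited and 1.44-fold (1.36 to 1.52) relative to the overall median. Its log2 ratio was above that of 88.7% of the measured models. The level was thus higher in the morpholino library by more than counting error under both scalings, and short of 2-fold.

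Sp-Ployketide_synthase_like (WHL22.202707.0, SPU_002895), named for the enzyme class that builds the polyketide backbone of the pigments, had the most reads of the members. It was at 146126 units in the control and 199101 in the morpholino library, from 55195 and 78270 reads. These reads were 1.25% of the control library and 1.64% of the other. The ratio was 1.36-fold (1.35 to 1.38) as deposited and 1.57-fold (1.56 to 1.59) relative to the median, above 91.6% of the measured models. The narrow interval reflects the depth and carries no information on the spread between embryo batches.

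Sp-Scl (WHL22.399764.0, SPU_028093), a bHLH transcription factor gene whose vertebrate counterpart acts in blood cell specification, was at 553.3 units in the control and 870.0 in the morpholino library. The 209 and 342 reads gave the highest ratio of the 9 members, 1.57-fold (1.32 to 1.88) as deposited and 1.82-fold (1.52 to 2.17) relative to the median. Its log2 ratio was above that of 95.3% of the measured models. Sp-GataC (WHL22.660411.0, SPU_027015), a GATA factor gene expressed in the same precursors, was at 468.6 and 468.1 units, from 177 and 184 reads. Its ratio was 0.999-fold (0.808 to 1.23) as deposited and 1.15-fold (0.933 to 1.43) relative to the median, so a difference was not detectable at this depth, and the interval leaves out changes of 2-fold in either direction.

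The flavin monooxygenases add oxygen to substrates with nitrogen or sulfur in vertebrates, and some are expressed in sea urchin pigment cells. Which of the models below belong to pigment cells is not given by the tables. Of the 9 Fmo models described here with a value, 5 reached 1 CPM. The name Sp-Fmo2 was carried alone by 3 models at 1 CPM or more, with ratios on both sides of 1. Of these, WHL22.112914.1 and WHL22.504736.0 each span 2 gene predictions. WHL22.112914.1 was at 8675.7 and 10658.4 units, from 3277 and 4190 reads, a ratio of 1.23-fold (1.17 to 1.29), or 1.42-fold (1.35 to 1.49) relative to the median. WHL22.504736.0 was at 569.2 and 524.0 units, from 215 and 206 reads. Its ratio was 0.921 (0.757 to 1.12), or 1.06 (0.874 to 1.29) relative to the median. WHL22.720728.0 had 20 and 17 reads, at 52.9 and 43.2 units, with a ratio of 0.817 (0.402 to 1.64). The first model was higher in the morpholino library, while the intervals of the other two included 1.

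The other Fmo models described here were thinly covered. Sp-FMO6L (WHL22.39482.0), which also spans 2 predictions, was at 145.6 and 178.1 units from 55 and 70 reads, a ratio of 1.22 (0.847 to 1.77). Sp-Fmo5 (WHL22.603788.0) had 10 and 12 reads, a ratio of 1.15 (0.457 to 2.98). Both intervals include 1, also relative to the median. Below 1 CPM lay 4 models with 1 to 4 reads in each library: Sp-Fmo2_5 with 4 and 4 reads, a model named both Sp-Fmo2 and Sp-Fmo5 with 3 and 3, and Sp-Fmo5 models with 1 and 3 and with 1 and 1. Related Fmo genes could share reads, and how the authors' counting divided them is not given in the sources used here.

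**Figure D2:**
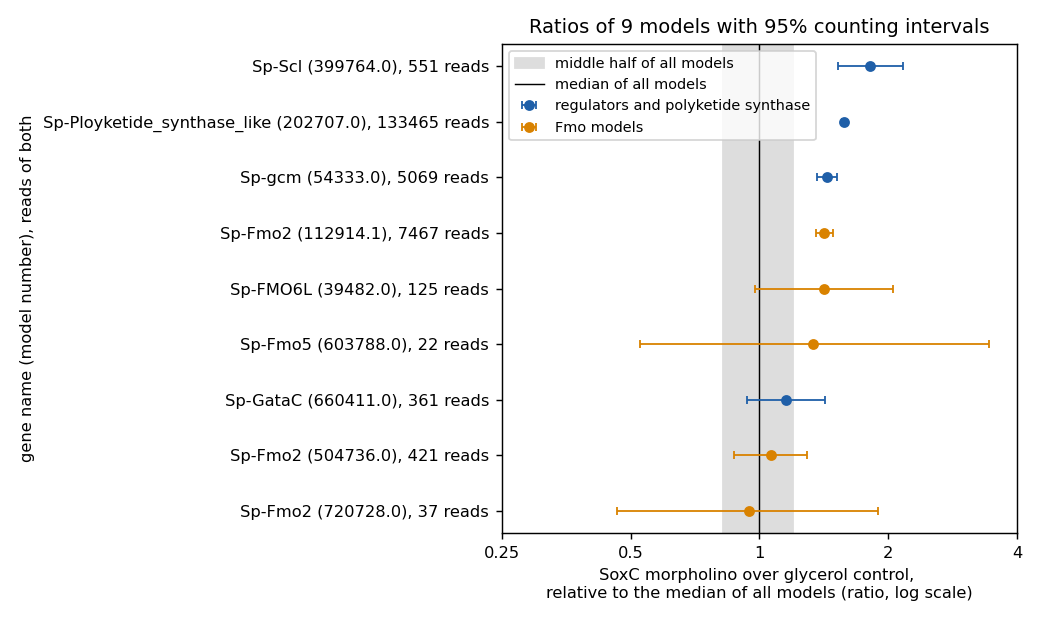
Ratio of the morpholino library over the glycerol control relative to the overall median (log scale) for the 9 members at 1 CPM or more, with 95% counting intervals; gray marks the central range (25th to 75th percentile) of all models. The intervals of Sp-Scl, Sp-Ployketide_synthase_like, Sp-gcm and Sp-Fmo2 (WHL22.112914.1) lie above 1, and the intervals of the other 5 include 1.

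Of the 9 members at 1 CPM or more, 8 lay above the overall median, where 50% of all models lie by construction, and 1 below. The median of their log2 ratios was 0.29 as deposited and 0.49 relative to all models, whose 25th and 75th percentiles ran from -0.28 to 0.26. The relative values ran from -0.08 for the Sp-Fmo2 model WHL22.720728.0 to 0.86 for Sp-Scl. The counting interval lay wholly above the overall median for 4 members and wholly below it for none. Over all models these shares were 12.4% above and 10.2% below. Of the 4567 models with 100 reads or more in sum, 20.3% lay wholly above, and 7 of them were members, including those 4. As deposited, the interval lay above a ratio of 1 for the same 4 members and below it for none, against 3.99% and 25.6% of all models. The member below the median had fewer than 100 reads over both libraries, and the 7 members with 100 or more all lay above it. With a size rule of 1.5-fold in place of 2-fold, Sp-Scl alone met it as deposited, against 1.61% of all models. With the overall median set to 0, Sp-Scl and Sp-Ployketide_synthase_like met it, against 3.67%.

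**Figure D3:**
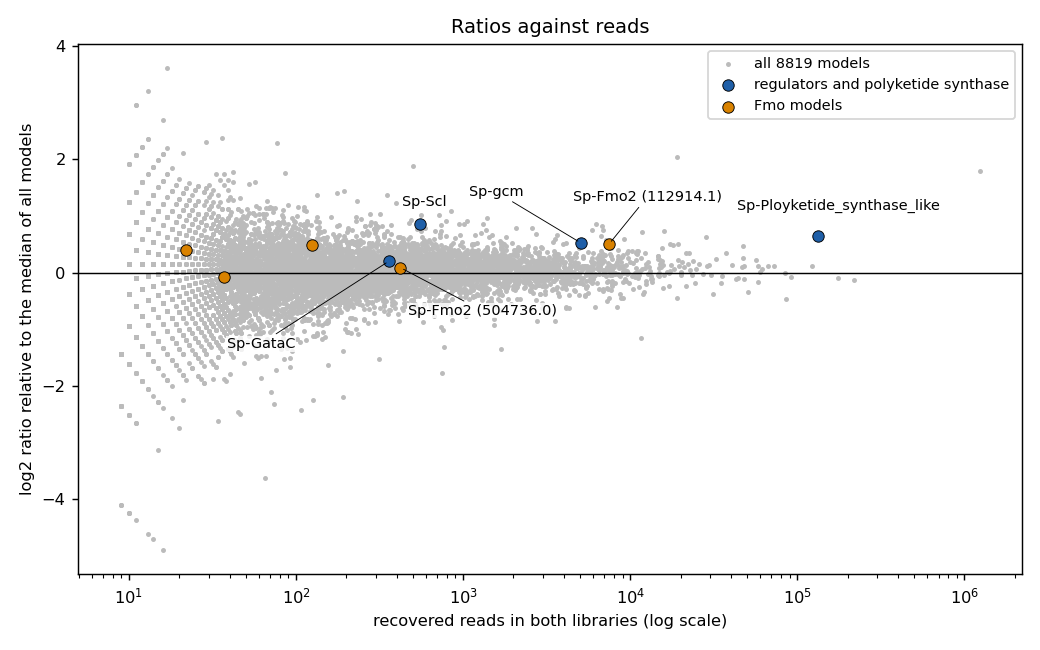
Log2 ratio less the overall median against the recovered reads of both libraries (log scale), 1 gray point per model with a mean level of at least 1 CPM, and the 9 members in color. Sp-Ployketide_synthase_like, with 133465 reads over both libraries, lies at 0.65, and Sp-Scl, with 551, at 0.86; the gray points spread more widely at few reads.

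The members were also compared with each other. The ratio of the ratios of 2 models does not depend on the scaling, and its exact conditional 95% interval left out 1 for 11 of the 36 pairs. The intervals were not widened for the number of pairs. Sp-Scl stood above Sp-GataC by 1.57-fold (1.19 to 2.08), so these regulators of the same precursors differed by more than counting error. Sp-Scl also stood above Sp-gcm, by 1.26-fold (1.05 to 1.52), and not separably above Sp-Ployketide_synthase_like, at 1.15-fold (0.968 to 1.38).

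Sp-Ployketide_synthase_like stood above Sp-gcm by 1.09-fold (1.03 to 1.16) and above Sp-Fmo2 (WHL22.112914.1) by 1.11-fold (1.06 to 1.16). Sp-gcm and Sp-Fmo2 (WHL22.112914.1) were not separable, with a ratio of ratios of 1.01 (0.942 to 1.09). The pair Sp-gcm and Sp-GataC was at the edge of separation, at 1.25-fold (1.001 to 1.55). Within the Fmo family, Sp-Fmo2 (WHL22.112914.1) stood above the Sp-Fmo2 model WHL22.504736.0 by 1.33-fold (1.09 to 1.63). The 3 Fmo models with the fewest reads of these 9 were in no separated pair. The ratios of Sp-Ployketide_synthase_like and Sp-Fmo2 (WHL22.112914.1) thus differed by more than counting error, although both were higher in the morpholino library. The spread between libraries is not known with 1 library per group.

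Other regulators of the nonskeletogenic mesoderm were read from a wider list, several of whose genes are also used elsewhere, such as Six3 in the anterior neuroectoderm, GataE in the endoderm and Alx1 in skeletogenic cells. Of 18 measured models, 1 was lower by the 2-fold rule and 17 were not called, against 4.67% lower of all models. Relative to the overall median, 11 lay above and 7 below, with a list median of 0.07 (-0.14 as deposited). The highest was Sp-Ese, an Ets family transcription factor gene, at 487.1 and 646.1 units, a ratio of 1.33 (1.09 to 1.61). Next by the log2 ratio with its pseudocount of 0.5 reads was Sp-Prox1, a homeobox gene, at 434.2 and 503.7 units, 1.16-fold (0.938 to 1.44). The lowest was Sp-Tel, another Ets family gene, which met the rule from 18 and 6 reads, a ratio of 0.32 (0.104 to 0.842). Sp-Sna, the snail gene, had 11 and 4 reads, a ratio of 0.349 (0.0811 to 1.18).

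Names of pigment synthesis and pigment cell products formed a broader list, which holds whole gene families (sulfotransferases, MIF and MACPF proteins, opsins) whose members are not all known from pigment cells. Of 24 measured models, 2 were lower by the 2-fold rule and 22 met it in no direction, against 4.67% lower of all models. The overall median had 11 of them above it and 13 under it, and the median of the list was -0.06 on that relative scale. The highest was a further polyketide synthase name, Sp-Polyketide-synthase-like (WHL22.22317.0), at 1326.4 units in the control and 2241.1 in the morpholino library. Its 501 and 881 reads gave a ratio of 1.69 (1.51 to 1.89), so both polyketide synthase names were higher by more than counting error. Whether this further model belongs to pigment cells, and whether related models share reads, was not known. Sp-Mif-1 was next, from 5 and 8 reads, a ratio of 1.54 (0.443 to 5.97).

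The models of that list that met the rule as lower were a sulfotransferase, Sp-Sult1b1_1, from 138 and 71 reads, and an opsin, Sp-Opn5L, from 59 and 27. Their ratios were 0.494 (0.366 to 0.663) and 0.44 (0.268 to 0.704), and with the overall median set to 0 neither met it. The lowest values were those of Sp-opsin2, with 9 and 3 reads, and Sp-MACPF-C.1, with 12 and 5, whose intervals include 1.

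Of 8 names of blastocoelar and immune cell products, 4 reached 1 CPM and none met the size rule, and their median was 0.13 relative to all models. Sp-PDGFR/VEGFR-like, a growth factor receptor name, was at 1133.1 and 1297.3 units, a ratio of 1.14 (1.005 to 1.30). Sp-rel, an NF-kB family gene, was at 855.1 and 801.3 units, 0.937 (0.800 to 1.10). Sp-Nfkb had 10 reads in each library, and Sp-Il17-8, a cytokine gene, 12 and 7. The other 3 names with a value, all of an immune effector family, had at most 5 reads in a library.

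The Delta and Notch genes act upstream of gcm in the specification of these cells. Of 5 measured, none met the size rule as deposited, with a list median of -0.20 on the relative scale. Sp-delta, the ligand gene, was at 1726.1 and 1083.6 units, a ratio of 0.628 (0.554 to 0.710). Sp-Notch, the receptor gene, was at 5988.5 and 4952.7 units, 0.827 (0.778 to 0.879), and Sp-HesC, a repressor gene, at 6706.0 and 5059.6 units, 0.754 (0.711 to 0.800). Sp-Fringe(Fragment) had 30 and 19 reads. Sp-Numb, named for a Notch inhibitor, was at 100.6 and 188.2 units, 1.87-fold (1.25 to 2.84), and met the rule as higher with the overall median set to 0 but not as deposited. Relative to that median, the intervals of Sp-delta and Sp-HesC lay below 1 and that of Sp-Notch included it. In the same library, Sp-delta was lower and Sp-gcm higher by more than counting error under both scalings, each short of 2-fold. These are whole embryo levels at 30 hours, which do not give the Delta signal received when gcm was turned on. Whether the levels of these genes are linked was not tested.

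Markers of the other cell types in the embryo are given beside these results, as sums over the models of each marker list. Of 8 skeletogenic marker names, 4 reached 1 CPM, all of them SM30 names, and 2 were blank. Their relative log2 values ran from -1.29 for SpSM30-F, from 9 and 3 reads, to 0.25 for SpSM30-E. The 4 models at 1 CPM or more had a relative median of -0.18. The list's summed level went from 3846.7 units in the control to 2948.2, with Sp-SM30-A at 0 reads in the morpholino library against 1 in the control. The 5 endoderm markers had a relative median of 0.17 and sums of 18945.1 and 17310.4 units, most of it from Sp-FoxA, at 16655.1 and 15232.1. Beside Sp-Hox11/13b, the list took in the related names Sp-Hox11/13a, from 7 and 8 reads, and Sp-Hox11/13c, from 2 and 8. The 7 ectoderm markers with a value, of 8 names, had a relative median of -0.03, with 3 above the overall median and 4 below. Their sums were 66202.2 and 53332.6 units, most of it from Sp-Spec2c, at 51437.3 and 39095.1. All sums here are as deposited, where the median log2 ratio of all models was -0.21. The 4 neuronal markers with a value, of 6 names, had a relative median of -0.99 and sums of 25807.3 and 21021.8 units, most of it from Sp-Soxb2, at 23790.0 and 20398.5. No marker of these 4 lay near their list median of -0.99. The relative log2 values were -3.62 for Sp-z167, -1.78 for Sp-Brn1-2-4, -0.20 for Sp-Syt1-2 and -0.01 for Sp-Soxb2. Of these, 2 met the size rule as lower, against 4.67% of all models, and also with the overall median set to 0, against 2.35%. They were Sp-Brn1-2-4, at 1564.6 and 394.3 units, a ratio of 0.252 (0.210 to 0.301), and Sp-z167, at 161.5 and 10.2 units, a ratio of 0.0630 (0.0166 to 0.170). No other marker with a value was at 0 reads, and SM50, Msp130r1, Endo16, Blimp1 and Spec1 were not analysed here. The sum over the 13 members went from 162487 to 219179 units, most of it from Sp-Ployketide_synthase_like, and without that model from 16361.1 to 20077.9. Whether a shift in cell types took part in the members' ratios was not tested.

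**Figure D4:**
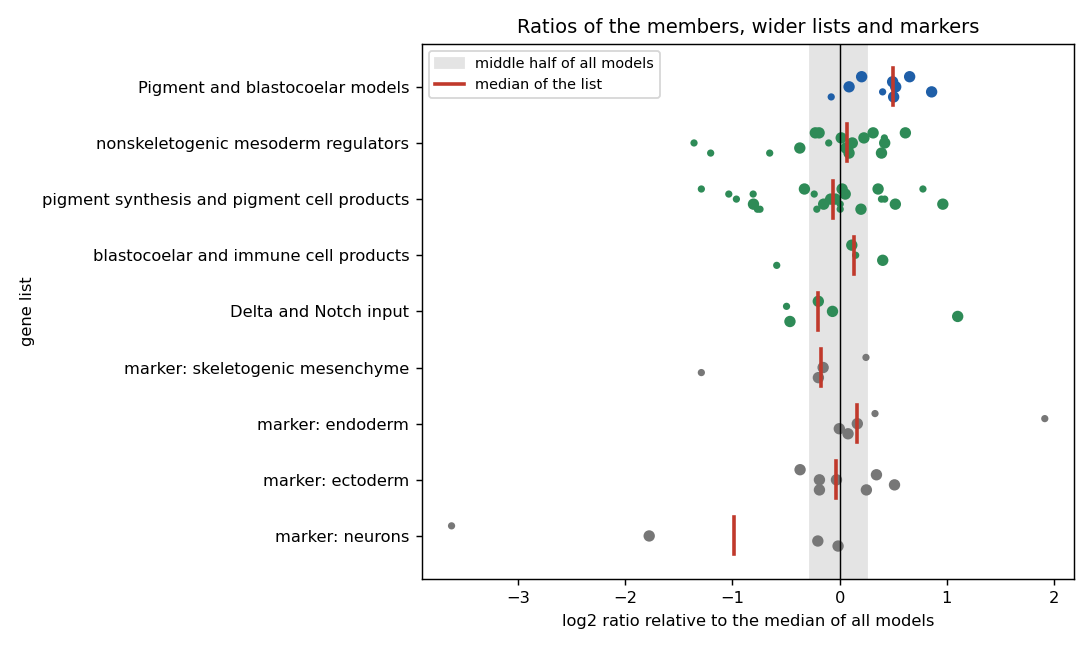
Log2 ratio less the overall median for the 9 members, the wider lists and the marker lists, 1 point per model at 1 CPM or more; large points have 100 reads or more in sum, red bars are list medians and gray is the central range (25th to 75th percentile) of all models. The members' median lies at 0.49, and those of the wider lists between -0.20 and 0.13. That of the neuronal markers lies at -0.99, with its 4 models spread from -3.62 to -0.01.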

How the data were processed

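RNA was from whole embryos, 1 library per group, grouped by sample title. Per the submitters' processing notes, CASAVA 1.8 and Bowtie were used; of the counter, the normalization, the build and whether counting used strand, nothing is given in the sources used here, so no positions or sequences are printed. The deposited signal per model was a whole multiple of a step in each library, within 0.1 for 99.961% and 99.954% of models, and reads were recovered by division. Each table has 24565 rows for 17269 models, 4326 of them blank. Log2 ratios used a pseudocount of 0.5 reads, which understates changes of models with few reads; the 2-fold rule used that log2 ratio. Ratios in the text have no pseudocount. The text does not report 2 models that match the name rule, nor 1 entry of a wider list; all models stay in the shares over all models. The interval rule against the median treats that median as fixed and was added after the values were seen. Where several models carry a name of a wider list, the one with most reads was used. The members and lists were chosen with earlier results of these data known, and some patterns were narrowed after the names in the tables were seen. The rule for named genes took every member described and, per wider list, the 2 highest, the 2 lowest and all that met the size rule. Some others, such as Sp-HesC, Sp-Gatae and Sp-Tgif, were named outside it. Intervals and read recovery were checked on simulated Poisson counts with no spread between libraries. That checks the code only, and not whether the deposited values are reads. Versions were Python 3.11.15, scipy 1.17.1, R 4.3.3 and edgeR 4.0.16 (TMM factors only). Alternatives were other scalings, floors, folds and pseudocounts.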

Additional observations from a re-analysis of the deposited data

How the results depend on the processing

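No member met the size rule in either direction under total reads, the median of ratios, the upper quartile, TMM factors, totals without the most abundant model, floors of 5 CPM or none, 3-fold, or the fold alone. At 1.5-fold 1 member was higher, and 2 were at 1.5-fold with the median of ratios, a setting chosen after the data were seen. The members' median log2 ratio of 0.29 ran from 0.24 with total reads to 0.50 with TMM factors. It is that of a model with 125 reads, so its counting interval is wide. Above the median of all models lay 8 of 9 members, 7 of 7 at a floor of 5 CPM and 12 of 13 with none. The 4 models added with no floor had 1 to 4 reads in each library. Equal reads in both libraries lie above that median, which was -0.21, so these models add little. Of 63 log2 ratios of single members under other settings, 13 left their counting interval, all under another scaling. The median of the mesoderm regulators, -0.14 as deposited, was 0.068 with the median of ratios, 0.071 with the upper quartile, 0.076 with TMM factors and 0.021 with totals without the most abundant model. For the Delta and Notch genes these were -0.20, -0.20, -0.19 and -0.25, against -0.41. A scaling moves every model alike. Separated pairs were 30.6% of 36, and 33.3% of 21 with reads summed by name. No paired analysis was possible because the groups hold a single library each. Depth limits the Fmo models with few reads.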
